A study of Mus musculus with 2 samples.

Results

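The genes described here are 37 lysosomal hydrolases and lysosomal membrane or luminal proteins, chosen by symbol from the 28692 genes of the count tables. By role they are 8 proteases, 11 enzymes that degrade glycans and glycosaminoglycans, 8 enzymes or cofactors of sphingolipid and other lipid breakdown, 8 membrane proteins and 2 soluble luminal binding proteins. Their levels were read in single cells of the mesentery, selected with beads against CD31, a surface protein of endothelial cells and of some blood cells. Flcn iΔEC mice carry floxed Flcn alleles and Cdh5-BAC-CreERT2, a Cre recombinase that is driven by the promoter of an endothelial cadherin and is active once 4-hydroxytamoxifen is given. The libraries were made at P8 on the C57BL/6 background, after 4 subcutaneous injections of 4-hydroxytamoxifen (40 μg each, the first at P2, then at P3.5 and P5, the last at P6.5) in both groups, and the genotype of the control mice is not given in the sources used here beyond the word control. Each library pooled the cells of 3 mice, and the Cre is aimed at all endothelium rather than at 1 vessel type.

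The lysosome is the acidic compartment in which cells break down proteins, glycans and lipids delivered by endocytosis and autophagy. Its soluble hydrolases are synthesized in the endoplasmic reticulum and sorted to the lysosome mostly through the mannose 6-phosphate tag, while heavily glycosylated membrane proteins such as LAMP1 and LAMP2 line its limiting membrane. Many genes of this compartment are targets of the MiT/TFE transcription factors (TFE3, TFEB, MITF), which bind E-box motifs in promoters and which FLCN, acting on Rag GTPases at the lysosomal surface, helps to keep in the cytoplasm.

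The promoters are shown first, because the E-box is the sequence through which this family of factors is known to bind. RefSeq promoters on GRCm38.p6, covering 250 bases before and 50 bases after each start site, were held for 32 of the 37 members and for 27025 genes in all; for Ctsb, Ctsh, Asah1, Npc1 and Galns no entry was used here. The palindrome CACGTG was present in 12 of the 32 (37.5%), against 8.09% of all genes. The longer TCACGTG, searched on both strands and overlapping the palindrome, was present in 10 (31.2% against 4.29%), and TCATGTG, also searched on both strands, in 6 (18.8% against 4.31%). The sites below, with CACGTG in capitals and 10 bases on either side, are the 4 in the Lamp1 promoter and 1 each from 3 members past 2-fold in endothelial cells (Ctsd, Ctsa, Gaa), from Naglu, past 2-fold in lymphatic cells, and from 2 members whose levels were close to equal (Glb1 and Sgsh). A match describes the letters in this window only.
Lamp1, chr8:13159090-13159115, + strand: ggcaagatatCACGTGgtccagcgcc
Lamp1, chr8:13159106-13159131, + strand: gtccagcgccCACGTGatgccgactg
Lamp1, chr8:13159123-13159148, + strand: tgccgactggCACGTGaccacatcac
Lamp1, chr8:13159136-13159161, + strand: gtgaccacatCACGTGcggaacggag
Ctsd, chr7:142387910-142387935, - strand: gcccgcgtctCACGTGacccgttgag
Ctsa, chr2:164833751-164833776, + strand: agcaaactgtCACGTGatgcagatgc
Gaa, chr11:119267813-119267838, + strand: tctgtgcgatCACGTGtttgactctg
Naglu, chr11:101070011-101070036, + strand: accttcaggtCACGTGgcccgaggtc
Glb1, chr9:114401020-114401045, + strand: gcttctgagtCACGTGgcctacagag
Sgsh, chr11:119355524-119355549, - strand: gcctgccgtgCACGTGaccgtgggga
The members with the largest ratios, Gpnmb and Cd63, held none of the 3 motifs in this window. The RefSeq start used for Cd63 lies inside the gene as GENCODE places it, so that the window is not the 5′ end of its longest extent. The same holds for the starts behind the Ctsa and Ctsd sites above, and by fewer bases for Gaa, Naglu, Sgsh and Glb1. The 250 bases before the start sites of Gpnmb and Cd63 are given in full so that they can be set beside the Lamp1 sites.
Gpnmb, chr6:49036268-49036517, + strand: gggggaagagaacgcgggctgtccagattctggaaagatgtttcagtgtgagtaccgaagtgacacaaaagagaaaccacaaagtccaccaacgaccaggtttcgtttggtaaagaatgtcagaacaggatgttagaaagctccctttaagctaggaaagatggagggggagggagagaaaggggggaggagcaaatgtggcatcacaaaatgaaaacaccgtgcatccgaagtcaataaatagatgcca
Cd63, chr10:128909095-128909344, + strand: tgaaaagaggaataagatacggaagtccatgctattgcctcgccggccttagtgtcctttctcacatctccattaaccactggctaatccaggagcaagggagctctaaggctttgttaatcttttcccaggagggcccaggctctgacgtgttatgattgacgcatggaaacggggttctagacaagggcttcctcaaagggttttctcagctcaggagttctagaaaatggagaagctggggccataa
In endothelial cells the 10 members with TCACGTG had a median log2 ratio of Flcn iΔEC over control of 0.89, ranging from -0.08 to 1.34, and 4 of them were past 2-fold. The 22 without it had a median of 0.79, ranging from -0.23 to 7.06, and 9 of them were past 2-fold. The range of the members with TCACGTG thus lay inside that of the members without it, and the difference between the 2 sets was not tested.

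The control library held 6814 cells and the Flcn iΔEC library 4459, with 64639756 and 60805779 unique molecular identifiers (UMIs, each standing for 1 captured RNA molecule). Endothelial cells, defined by at least 2 UMIs of Cdh5 and at most 1 of Ptprc, numbered 429 and 748, and marker scores divided them into lymphatic (LEC-like, 81 and 334 cells), arterial (AEC-like, 98 and 132), venous (VEC-like, 81 and 161) and capillary (capillary-like, 111 and 44) cells, with 13.5% and 10.3% unassigned. The largest groups with 0 Cdh5 UMIs were T-like (2638 and 1153) and B-like lymphocytes (2474 and 1425), beside only 29 and 17 myeloid-like cells with a median of 1116 and 2493 UMIs. Endothelial cells of the Flcn iΔEC library were deeper, with a median of 22531.5 UMIs against 13577. There were 6 barcodes common to both libraries. The X-inactivation transcript Xist summed to 9 UMIs over control cells and 63462 over Flcn iΔEC cells, which bears on the X-linked members Lamp2 and Gla. In endothelial cells Flcn itself was at 8.02 and 9.72 CPM (control first, ratio 1.21, 0.908 to 1.64). The kit reads the 3′ ends of transcripts, and the exons removed from Flcn are not given in the sources used here, so this level does not check the genotype. With 1 library per genotype there is no replicate and no test. Levels are counts summed over the cells of a type and scaled by the total UMIs of those cells (CPM), given as control and Flcn iΔEC in this order, ratios are Flcn iΔEC over control, and all ranges in parentheses are 95% intervals that cover counting error only. Genotype, sex composition and library cannot be told apart in these data.

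In endothelial cells the lysosomal genes stood mostly higher in the Flcn iΔEC library. Of the 37 members, all with at least 50 summed counts, 14 were past 2-fold up and 0 past 2-fold down, where 3.79% of the 12003 genes tested were past 2-fold up and 6.71% past 2-fold down. The median log2 ratio of the members was 0.82, and that of all genes tested was -0.16. In total 34 members lay above 0, against 34.8% of all genes, and the exceptions were Gm2a, Ctsh and Sgsh. LEC-like cells made up 81 of the 429 control and 334 of the 748 Flcn iΔEC endothelial cells, so the pooled levels mix the types in unequal parts, and with equal weight for each endothelial type the median was 0.68. At a limit of 1.5-fold, 25 members were called up, where 7.8% of all genes were. The lymphocytes of the same libraries did not show this. In T-like cells the members had a median log2 ratio of -0.07 beside -0.04 for all genes, with 2 of the 35 tested past 2-fold up (Cd63 and Ctsl) where 1.33% of all genes were, 0 past 2-fold down where 0.84% were, and 4 past 1.5-fold up where 5.3% were. In B-like cells the values were -0.08 beside -0.07, with 1 of 35 past 2-fold up (Cd63) where 2.3% of all genes were and 0 down where 1.05% were. The log2 ratio was larger in endothelial than in T-like cells for 31 of the 35 members tested in both, and larger than in B-like cells for 32 of 35. These 2 counts were not made over all genes.

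**Figure D1:**
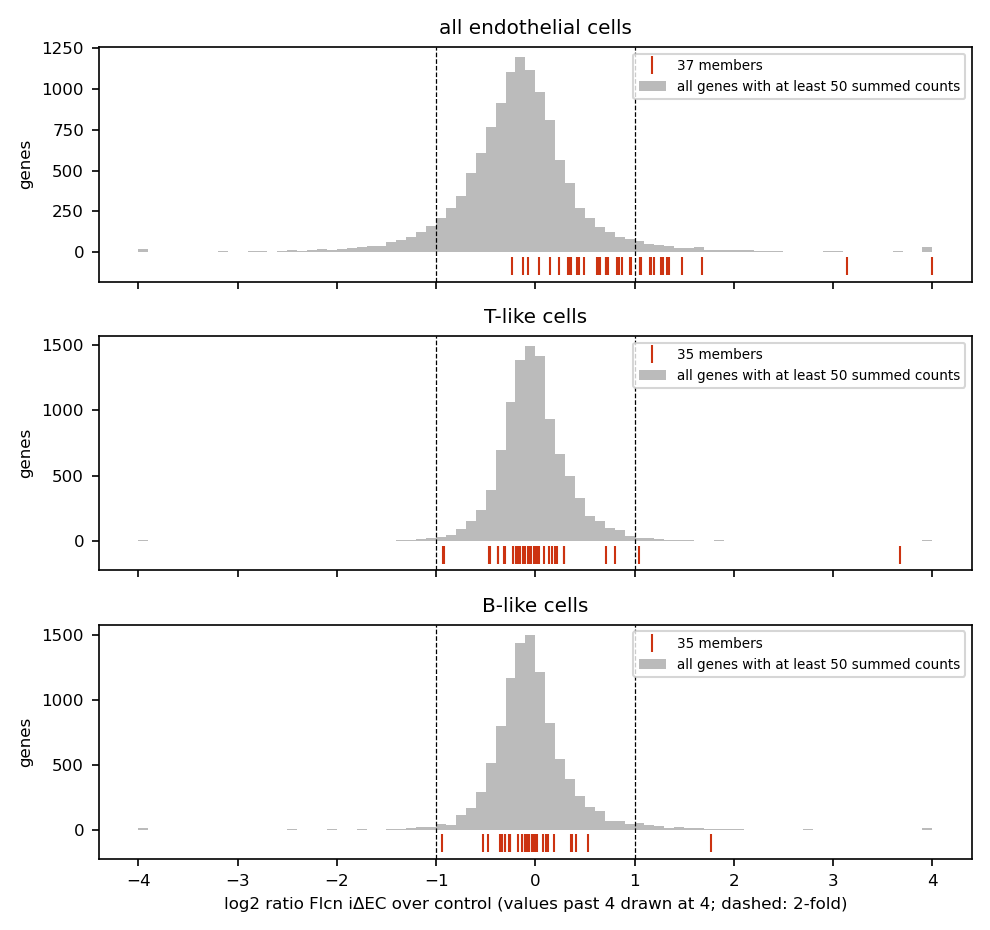
Number of genes (y axis) by log2 ratio of Flcn iΔEC over control (x axis, bins of 0.1) in all endothelial, T-like and B-like cells. Grey bars are all genes with at least 50 summed counts, red marks are the members and dashed lines mark 2-fold; 14 of 37 members lie past the right line in endothelial cells and 2 and 1 of 35 in T-like and B-like cells.

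Among the membrane proteins, 4 of 8 were past 2-fold in all endothelial cells (Gpnmb, Cd63, Lamp1 and Lamp2). Lamp1 (ENSMUSG00000031447, chr8:13159161-13175338 on GRCm38), one of the most abundant glycoproteins of the lysosomal membrane, was measured at 420 and 944 CPM over all endothelial cells, a ratio of 2.25 (2.17 to 2.33). By type it was 435 and 1026 CPM in LEC-like, 480 and 807 CPM in AEC-like, 457 and 920 CPM in VEC-like and 309 and 718 CPM in capillary-like cells. Each endothelial type was thus higher in the Flcn iΔEC library, and the lowest value of that library (capillary-like) exceeded the highest of the control (AEC-like). In T-like cells Lamp1 stood at 90.9 and 84.3 CPM, and in B-like cells at 99.7 and 93.1 CPM. The lymphocyte levels were far below the endothelial ones in both libraries and differed little between them.

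Lamp2, the partner of Lamp1 in the lysosomal membrane and a receptor for chaperone-mediated autophagy, was 159 and 332 CPM in endothelial cells (ratio 2.08, 1.96 to 2.21). The ratio was 2.31 in VEC-like, 2.09 in capillary-like, 1.82 in AEC-like and 1.55 in LEC-like cells. Lamp2 lies on the X chromosome, as does Gla, and its ratio was 1.12 (0.971 to 1.30) in T-like and 0.883 (0.807 to 0.966) in B-like cells of the same libraries. The ratio of Gla in T-like cells was 1.75, and the part of sex composition in the values of these X-linked genes cannot be told apart from genotype. Ctns, the cystine exporter, was 8.53 and 15.4 CPM in endothelial cells (ratio 1.81, 1.39 to 2.39) and was past 2-fold in VEC-like cells (7.61 and 20.2 CPM, ratio 2.65, 1.53 to 4.91). Scarb2, which carries glucocerebrosidase to the lysosome, had a ratio of 1.58 (1.42 to 1.75), and Cln3, a membrane protein mutated in juvenile neuronal ceroid lipofuscinosis, 1.55 (1.27 to 1.89). Npc1, the cholesterol exporter, was nearly level at 24.7 and 29.3 CPM (ratio 1.19, 1.01 to 1.4030).

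Cd63 (ENSMUSG00000025351, chr10:128900989-128912822 on GRCm38), a tetraspanin of late endosomes, lysosomes and exosomes, had the largest difference among the members that were well detected in both libraries. Its level over all endothelial cells was 305 and 2686 CPM, a ratio of 8.82 (8.46 to 9.19). This pooled ratio was above that of each of the 4 types, and its log2 value of 3.14 was 2.47 with equal weight for each type. The level went from 624 to 4289 CPM in LEC-like cells, from 299 to 948 CPM in AEC-like, from 216 to 1382 CPM in VEC-like and from 77.3 to 528 CPM in capillary-like cells. LEC-like cells were the highest endothelial type in both libraries and capillary-like cells the lowest, and the ratio was smallest in AEC-like cells, 3.17 (2.89 to 3.49), against 6.41 to 6.87 in the other types. The difference was spread over the cells of a type. The median LEC-like cell had 6.04 Cd63 UMIs per 10000 in control and 42.6 in Flcn iΔEC, and 326 of the 334 Flcn iΔEC cells (97.6%) lay above the 90th percentile of control cells. The same share was 93.8% of VEC-like, 78.8% of AEC-like and 63.6% of capillary-like cells.

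**Figure D2:**
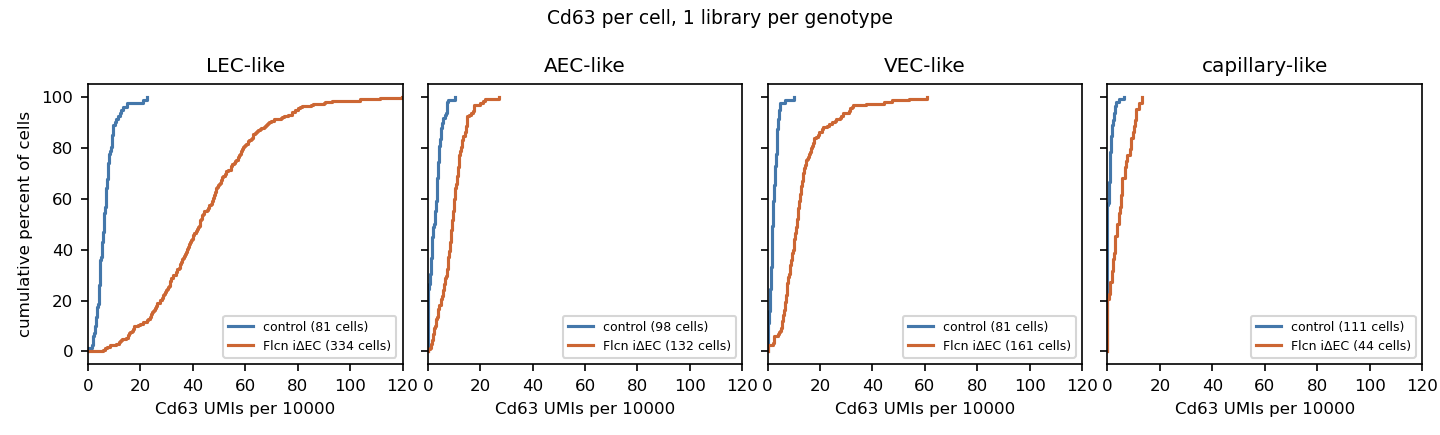
Cumulative percent of cells (y axis) by Cd63 UMIs per 10000 UMIs of the cell (x axis) in the 4 endothelial types, control in blue and Flcn iΔEC in orange. The Flcn iΔEC curve lies to the right in every type, and the medians are 6.04 and 42.6 in LEC-like cells, 2.57 and 9.36 in AEC-like, 1.88 and 11.05 in VEC-like and 0 and 4.08 in capillary-like cells.

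Cd63 also had the largest ratio of the members tested in T-like and in B-like cells, at much lower levels. T-like cells stood at 1.51 and 19.8 CPM (ratio 13.1, 8.95 to 19.6) and B-like cells at 3.74 and 12.8 CPM (ratio 3.43, 2.58 to 4.60). These levels were 1.67% and 1.86% of the Cd63 level of the whole library in T-like cells, and 4.13% and 1.21% in B-like cells. After thinning to 2000 UMIs per cell, 0.347% of control and 2.61% of Flcn iΔEC T-like cells held a Cd63 UMI, at median depths of 7482 and 7852 UMIs, against 71.6% and 98.8% of LEC-like cells at 16205 and 23905.5 UMIs. Without thinning the T-like shares were 1.10% and 9.71%. Cd63 over the whole library was 90.6 and 1063 CPM, and the part of free RNA in the lymphocyte values was not tested.

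Gpnmb (ENSMUSG00000029816, chr6:49036546-49070929 on GRCm38), a transmembrane glycoprotein of lysosomes and melanosomes, had 34 counts in the whole control library and 1468 in the Flcn iΔEC library, most of them in lymphatic cells. Control endothelial cells held 3 Gpnmb counts in all (0.382 CPM), and Flcn iΔEC endothelial cells 1372 (67.7 CPM), a ratio of 177 with a counting interval of 60.5 to 861. The size of this pooled value depends on how cells are weighted, since its log2 ratio of 7.06 was 5.49 as a mean of per-cell CPM and 3.04 with equal weight for each endothelial type. The equal-weight value also averages AEC-like and capillary-like cells, whose log2 ratios were set mostly by the 1 count added to each sum. The 3 control counts were all in LEC-like cells, where the level was 1.77 CPM against 133 CPM (ratio 75.2, 25.7 to 365). VEC-like cells held 0 control counts and 85 Flcn iΔEC counts (17.1 CPM), so the level was at least 11.3-fold higher against a floor of 3 counts per group. AEC-like cells had 0 and 1 counts and capillary-like cells 0 and 0. Of the 1468 Gpnmb counts of the Flcn iΔEC library, 84.9% came from LEC-like and 5.79% from VEC-like cells, although lymphatic cells made up 7.49% of its cells. The arterial and capillary counts lay at or under the floor, so no difference could be seen there at this depth.

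Among the LEC-like cells of Flcn iΔEC mice the Gpnmb counts were uneven. At least 1 UMI was seen in 212 of 334 cells (63.5%, exact interval 58.1 to 68.6), the highest cell held 50, and the 10 highest cells held 26.0% of the counts. After thinning to 2000 UMIs the share was 18.9%, against 0.174% of T-like and 0.0709% of B-like cells of that library, at median depths of 7852 and 8006 UMIs. In control LEC-like cells 3 of 81 held a UMI before thinning (3.70%, exact interval 0.770 to 10.4) and 0 of 81 after it, which by a limit of 3 counts allows a share of up to 3.70% of cells with a UMI at that depth. T-like cells had 22 counts in control and 15 in Flcn iΔEC (1.04 and 1.53 CPM, ratio 1.47, 0.709 to 2.96), so this low signal differed by less than its counting error. In VEC-like cells 73 of the 85 counts were in the 63 cells with at least 3 Prox1 UMIs (28.0 CPM), and the other 98 cells held 12 (5.11 CPM). The 10 highest VEC-like cells held 56.5% of the 85 counts, so a few cells carried the level. Most of the venous Gpnmb counts thus lay in cells with Prox1, the transcription factor of lymphatic identity, although the Prox1-positive cells were also the deeper ones (median 37581 against 17929 UMIs).

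**Figure D3:**
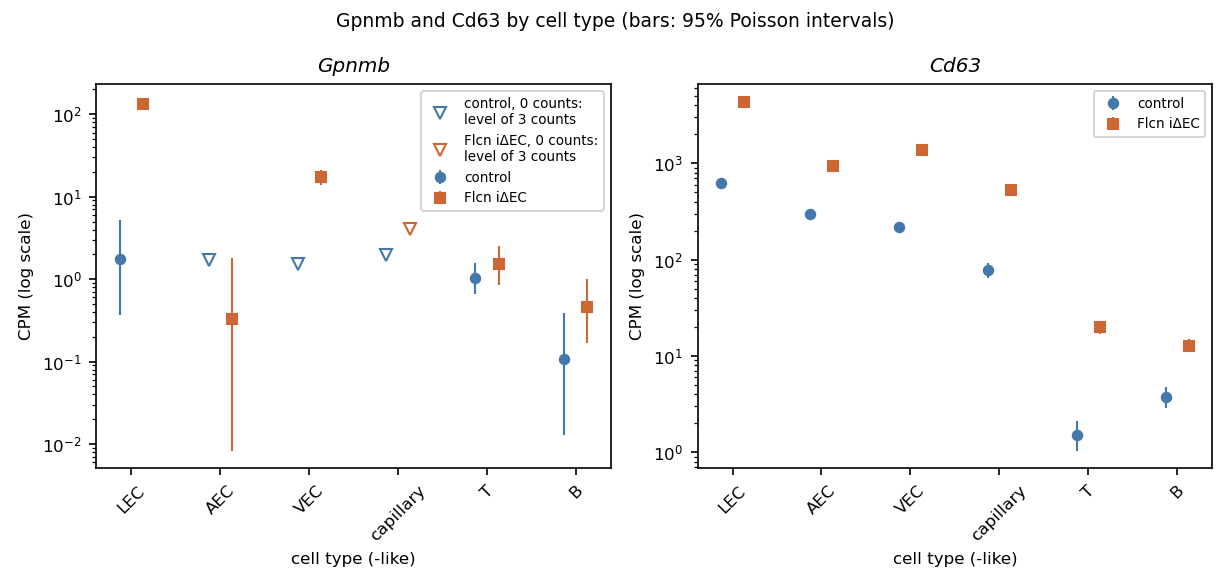
Level of Gpnmb and Cd63 in CPM (y axis, log scale) by cell type (x axis), control as blue circles and Flcn iΔEC as orange squares with 95% Poisson intervals. Open triangles mark types with 0 counts, drawn at the level of 3 counts; Gpnmb reaches 133 CPM in Flcn iΔEC LEC-like cells and 17.1 CPM in VEC-like cells, and Cd63 is higher in Flcn iΔEC in all 6 types.

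Of the proteases, 4 of 8 were past 2-fold in all endothelial cells (Ctsa, Ctsd, Tpp1 and Ctsl). Ctsd (ENSMUSG00000007891, chr7:142375911-142388038 on GRCm38), the main aspartic protease of the lysosome, was 284 and 712 CPM (ratio 2.51, 2.40 to 2.62). It stood at 499 and 960 CPM in LEC-like, 323 and 448 CPM in AEC-like, 190 and 479 CPM in VEC-like and 151 and 371 CPM in capillary-like cells. The AEC-like ratio of 1.38 (1.25 to 1.53) was the smallest and the VEC-like ratio of 2.53 (2.26 to 2.82) the largest, and these intervals did not overlap. In T-like cells Ctsd was 131 and 114 CPM (ratio 0.872, 0.812 to 0.934), and in B-like cells 52.3 and 52.0 CPM.

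Within LEC-like cells Ctsd followed Lyve1, the hyaluronan receptor that marks initial lymphatics. In the control library Lyve1-high cells had 847 CPM of Ctsd and Lyve1-low cells 242 CPM, and in the Flcn iΔEC library the values were 1344 and 657 CPM. The order was the same in both libraries, and the ratio between the genotypes was 1.59 (1.46 to 1.73) in the 33 and 138 Lyve1-high cells and 2.72 (2.38 to 3.12) in the 48 and 196 Lyve1-low cells. Cd63 and Gpnmb were ordered the other way in the Flcn iΔEC library, with 3581 and 4845 CPM of Cd63 and 90.5 and 167 CPM of Gpnmb in Lyve1-high and Lyve1-low cells. The division by Lyve1, like that of venous cells by Prox1, was chosen after the data had been seen. Ctsh was past 2-fold down in Lyve1-low cells (378 and 184 CPM, ratio 0.488, 0.432 to 0.552), where 8.3% of all genes were.

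Ctsa, the protective protein that keeps beta-galactosidase and neuraminidase stable, was 71.0 and 180 CPM in endothelial cells (ratio 2.54, 2.32 to 2.78), with ratios from 1.75 in AEC-like to 2.89 in LEC-like cells. Tpp1, a tripeptidyl peptidase, was 65.3 and 159 CPM (ratio 2.44, 2.22 to 2.68), again with the smallest ratio in AEC-like cells (1.52) and the largest in LEC-like cells (2.62). Both were near equal in T-like cells, with ratios of 0.916 and 0.960. Ctsl, a cysteine protease, was 390 and 811 CPM (ratio 2.08, 2.001 to 2.16). Its order was different, since the ratio was smallest in LEC-like cells (1.36, 1.28 to 1.45) and largest in capillary-like cells (2.94, 2.60 to 3.33). Ctsl was also past 2-fold in T-like cells, at 21.6 and 44.7 CPM (ratio 2.07, 1.81 to 2.36), which were 14.8% and 10.9% of the level of the whole library. Thus the T-like ratio of Ctsl was as large as the endothelial one, unlike those of Ctsa, Ctsd and Tpp1.

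Ctsb, a cysteine protease abundant in macrophages, was 234 and 428 CPM in endothelial cells (ratio 1.83, 1.74 to 1.92), past 2-fold in capillary-like cells (189 and 492 CPM, ratio 2.60, 2.22 to 3.04) and just under it in VEC-like cells (201 and 401 CPM, ratio 1.99, 1.79 to 2.23). Ctsf and Ctsz, 2 further cathepsins, had endothelial ratios of 1.67 (1.43 to 1.96) and 1.36 (1.30 to 1.43). Ctsz was lower in capillary-like cells (329 and 235 CPM, ratio 0.714, 0.597 to 0.851) while it was higher in the other 3 types.

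Ctsh (ENSMUSG00000032359, chr9:90054152-90076089 on GRCm38), an aminopeptidase among the cathepsins, had nearly equal levels over all endothelial cells, 889 and 818 CPM (ratio 0.920, 0.895 to 0.946), but differed in opposite directions by type. In AEC-like cells it was 1337 and 1998 CPM, in VEC-like cells 1921 and 1359.7 CPM, and in LEC-like cells 336 and 213 CPM. The ratios were 1.49 (1.42 to 1.57), 0.708 (0.680 to 0.737) and 0.634 (0.577 to 0.697). Capillary-like cells (30.1 and 34.1 CPM) and T-like cells (3.88 and 4.08 CPM) held little Ctsh, and B-like cells were level at 286 and 289 CPM. Ctsh therefore had its highest level in VEC-like cells of the control and in AEC-like cells of the Flcn iΔEC library. The VEC-like groups were not alike in their markers. Venous markers summed to 3995 and 2014 CPM in them and capillary markers to 2320 and 2460 CPM. The part of this difference in the VEC-like ratios of Ctsh and of the other members was not tested. The VEC-like ratio of Ctsh was 0.727 (0.691 to 0.765) without the Prox1-positive cells, from 72 and 98 cells. In the Prox1-positive cells it was 0.562 (0.521 to 0.608), from only 9 control and 63 Flcn iΔEC cells.

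**Figure D4:**
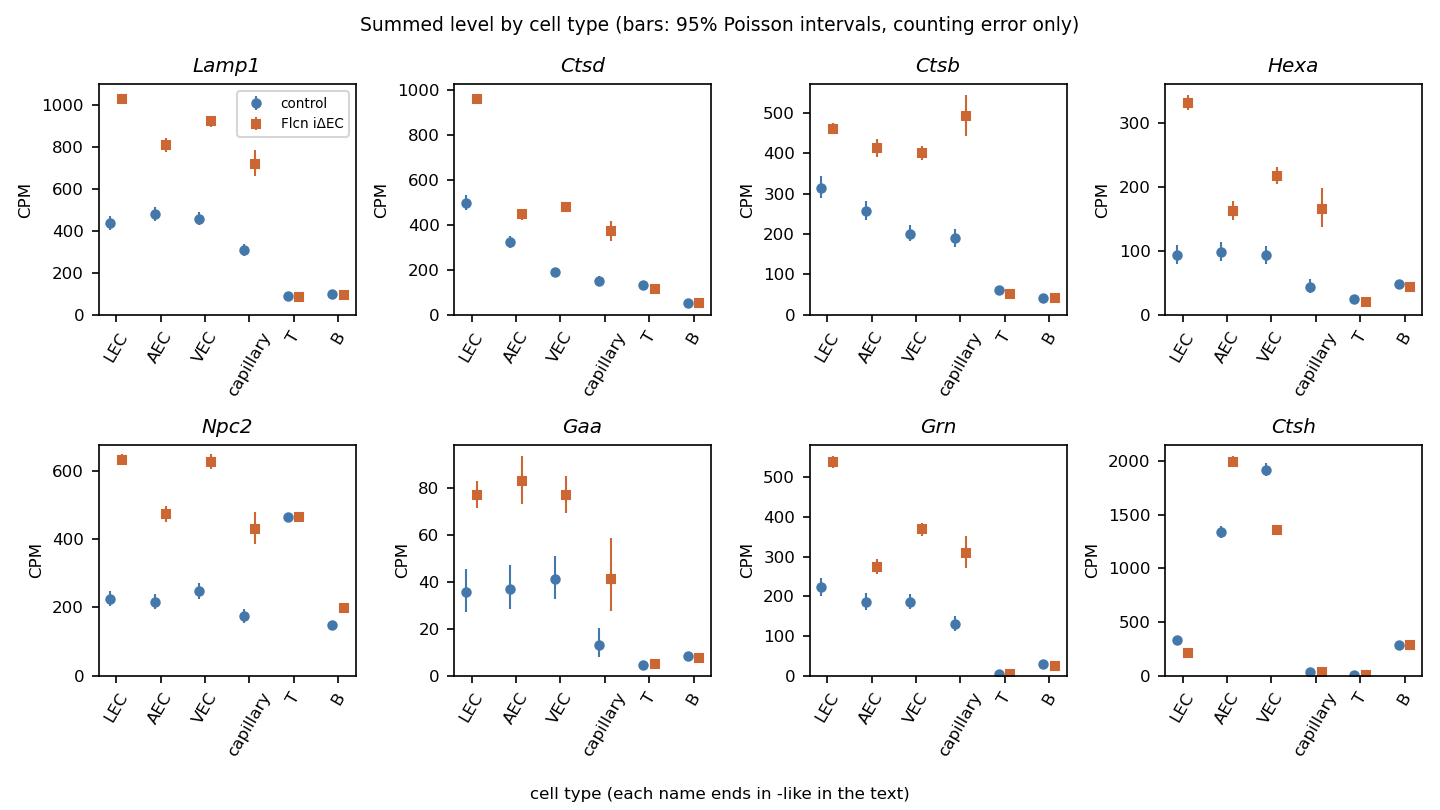
Level in CPM (y axis) of 8 members by cell type (x axis), control as blue circles and Flcn iΔEC as orange squares with 95% Poisson intervals. Lamp1, Ctsd, Ctsb, Hexa, Npc2, Gaa and Grn are higher in Flcn iΔEC in each endothelial type, Ctsh is higher in AEC-like cells (1337 and 1998 CPM) and lower in VEC-like and LEC-like cells, and T-like cells hold as much Npc2 (466 and 467 CPM) in both libraries.

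Among the enzymes of lipid breakdown and their cofactors, 2 of 8 were past 2-fold in all endothelial cells (Hexa and Asah1). Hexa, the alpha subunit of the beta-hexosaminidase that degrades GM2 ganglioside, was 82.6 and 264 CPM (ratio 3.20, 2.95 to 3.47). It was 94.0 and 333 CPM in LEC-like, 98.6 and 163 CPM in AEC-like, 93.4 and 218 CPM in VEC-like and 43.9 and 167 CPM in capillary-like cells. In the control library the intervals of the first 3 of these overlapped, whereas in the Flcn iΔEC library LEC-like cells stood well above the rest. In T-like cells the level was 24.8 and 19.99 CPM, a ratio of 0.807 (0.682 to 0.953). Asah1, the acid ceramidase, was 90.5 and 189 CPM (ratio 2.09, 1.93 to 2.26), past 2-fold in AEC-like, VEC-like and capillary-like cells and 1.49 (1.28 to 1.73) in LEC-like cells.

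Gla, the alpha-galactosidase of the globoside pathway, was past 2-fold in LEC-like cells only among the types in which it was tested (16.0 and 35.3 CPM, ratio 2.21, 1.49 to 3.41). This X-linked gene was also higher in T-like cells (13.3 and 23.3 CPM, ratio 1.75, 1.46 to 2.09) and near level in B-like cells (50.7 and 55.4 CPM), where it was highest in both libraries. Psap, the precursor of the saposins, had an endothelial ratio of 1.64 (1.58 to 1.70), Arsa, the arylsulfatase of sulfatide, 1.35 (1.17 to 1.56), and Ppt1, a palmitoyl-protein thioesterase, 1.28 (1.14 to 1.45). Lipa, the acid lipase of cholesteryl esters, was 42.0 and 46.6 CPM (ratio 1.11, 0.977 to 1.26). Gm2a, the activator protein that presents GM2 to beta-hexosaminidase, had the lowest ratio of all members, 0.853 (0.763 to 0.955), at 57.9 and 49.4 CPM. It was the 1 member past 2-fold down in any of the 4 endothelial types, in capillary-like cells (3.69% of all genes were past 2-fold down there; 56.3 and 25.9 CPM, ratio 0.461, 0.265 to 0.764, from 86 and 19 counts). Hexa and Gm2a, which act on the same substrate, thus lay at opposite ends of their group.

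Of the 11 enzymes acting on glycans and glycosaminoglycans, 2 were past 2-fold in all endothelial cells (Gaa and Neu1). Gaa, the acid alpha-glucosidase that degrades glycogen, was 32.7 and 75.2 CPM (ratio 2.30, 2.01 to 2.64). Its levels were 35.5 and 77.2 CPM in LEC-like, 36.9 and 82.9 CPM in AEC-like, 41.1 and 77.0 CPM in VEC-like and 13.1 and 41.0 CPM in capillary-like cells, the last from 20 and 30 counts. Gaa thus differed about as much in AEC-like cells as elsewhere. Neu1, the sialidase, was 25.2 and 56.4 CPM (ratio 2.24, 1.92 to 2.62), with 2.69 (1.97 to 3.78) in LEC-like and 1.30 (0.945 to 1.82) in AEC-like cells. B-like cells had more Neu1 in both libraries, 72.1 and 92.6 CPM.

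Naglu, which removes N-acetylglucosamine from heparan sulfate, was 31.4 and 55.6 CPM in endothelial cells (ratio 1.77, 1.54 to 2.04) and past 2-fold in LEC-like (18.3 and 54.8 CPM, ratio 2.99, 2.08 to 4.45) and capillary-like cells (17.7 and 38.2 CPM, ratio 2.16, 1.23 to 3.81). In T-like cells it was lower in the Flcn iΔEC library, 5.21 and 2.65 CPM from 110 and 26 counts (ratio 0.509, 0.319 to 0.787). LEC-like cells had the second lowest Naglu level of the control endothelial types and were near the other types in the Flcn iΔEC library. Idua, the iduronidase of the same pathway, had an endothelial ratio of 1.97 (1.43 to 2.77) from 46 and 234 counts, Manba, the beta-mannosidase, 1.64 (1.37 to 1.98), Fuca1, the fucosidase, 1.55 (1.44 to 1.67), and Man2b1, the alpha-mannosidase, 1.4038 (1.28 to 1.54).

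Gusb, the beta-glucuronidase, had a ratio of 1.25 (1.12 to 1.41) and Galns, the sulfatase of keratan sulfate, 1.28 (0.916 to 1.82) from 46 and 152 counts. Glb1, the lysosomal beta-galactosidase, was level at 32.2 and 33.1 CPM (ratio 1.03, 0.887 to 1.19), and its exons overlap those of Tmppe on the same strand. Sgsh, the heparan N-sulfatase, was 9.80 and 9.37 CPM (ratio 0.956, 0.730 to 1.26). Both carry CACGTG within 50 bases of the start site, as shown above, so that the motif stood in members with and without a difference.

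The 2 soluble binding proteins were both past 2-fold in all endothelial cells. Npc2, which hands cholesterol to NPC1, was 216 and 603 CPM (ratio 2.79, 2.65 to 2.94), with ratios of 2.81 in LEC-like, 2.54 in VEC-like, 2.49 in capillary-like and 2.20 in AEC-like cells. Npc2 and Cd63 were the 2 members past 2-fold in each of the 4 endothelial types. T-like cells had more Npc2 than endothelial cells in the control library (466 against 216 CPM) and less in the Flcn iΔEC library (467 against 603 CPM), since their own level was the same in both. B-like cells were at 149 and 198 CPM (ratio 1.33, 1.26 to 1.41). Grn, the progranulin gene, was 182 and 437 CPM (ratio 2.40, 2.27 to 2.54), with 2.42 (2.17 to 2.69) in LEC-like and 1.47 (1.29 to 1.68) in AEC-like cells.

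Across the endothelial types, 12 of 37 members were past 2-fold up in LEC-like cells, where 3.53% of all genes were, and 13 of 36 in VEC-like cells, where 3.09% were. The counts were 15 of 27 in capillary-like cells (2.75% of all genes) and 4 of 32 in AEC-like cells (2.23%), the last becoming 7 with log2 ratios centred on the median of all genes. Members past 2-fold down numbered 0 in LEC-like, AEC-like and VEC-like cells, where 7.41%, 4.39% and 4.46% of all genes were. With a limit of 1.5-fold the count was 13 in AEC-like cells (5.76% of all genes) and 21 in VEC-like cells (8.16%). The median log2 ratios were 0.57, 0.77, 1.05 and 0.54 in this order, and those of all genes -0.21, -0.08, -0.06 and -0.15. Members with low counts were not tested in capillary-like cells, which had the fewest Flcn iΔEC cells, so the medians rest on unequal sets of members. Over the 27 members tested in all 4 types, 20 lay above 0 in each of them. Among these 27 the AEC-like ratio was the smallest of the 4 for 14 members and the largest for 3, and it was below the VEC-like one for 26, and below the LEC-like one for 19, of the 32 members tested in both. Arterial ratios of the members were thus mostly below venous ones and closer to lymphatic ones, and Gaa and Ctsh were among the members with a larger ratio in AEC-like than in VEC-like cells. These counts across the types were not made over all genes. The median of all genes was also lower in AEC-like (-0.15) than in VEC-like cells (-0.08).

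The sum of hemoglobin transcripts differed strongly in 1 of these groups. The 4 erythroid markers summed to 31.0 and 3265 CPM in VEC-like cells, while in LEC-like cells they were 34.9 and 46.3 CPM. The median Flcn iΔEC cell held 0.487 of these UMIs per 10000 in VEC-like and 0.435 in LEC-like cells. A minority of VEC-like cells therefore carried the VEC-like sum. The part of hemoglobin transcripts in the VEC-like values was not tested as a cause. With mitochondrial, ribosomal protein and hemoglobin genes left out of the totals, the median log2 ratio in VEC-like cells was 0.82. Leukocyte markers summed to 61.5 and 20.5 CPM in LEC-like and 96.9 and 62.7 CPM in VEC-like cells, against 5288 and 4498 CPM in T-like cells. The 10 markers of myeloid cells, which are rich in lysosomes, summed to 40.8 and 16.4 CPM in LEC-like, 0.577 and 3.26 CPM in AEC-like, 12.2 and 1.61 CPM in VEC-like and 3.27 and 1.37 CPM in capillary-like cells, and Adgre1 was at 0 in all of these groups except AEC-like cells of the Flcn iΔEC library. In myeloid-like cells the same markers reached 21548 and 23901 CPM. Myeloid transcripts were therefore scarce in endothelial cells of both libraries. The LEC-like sum of the control came from 1 of the 10 markers, Mrc1, with the others at 0. In Flcn iΔEC LEC-like cells 8 of the 10 were detected, with 2 counts of Csf1r, 2 of C1qa and 3 of Lyz2. LEC-like cells held 1692139 and 9343627 summed UMIs, so the number of markers detected does not order the libraries. With the control sum resting on Mrc1 alone, the sums do not order the libraries by their myeloid transcripts either.

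**Figure D5:**
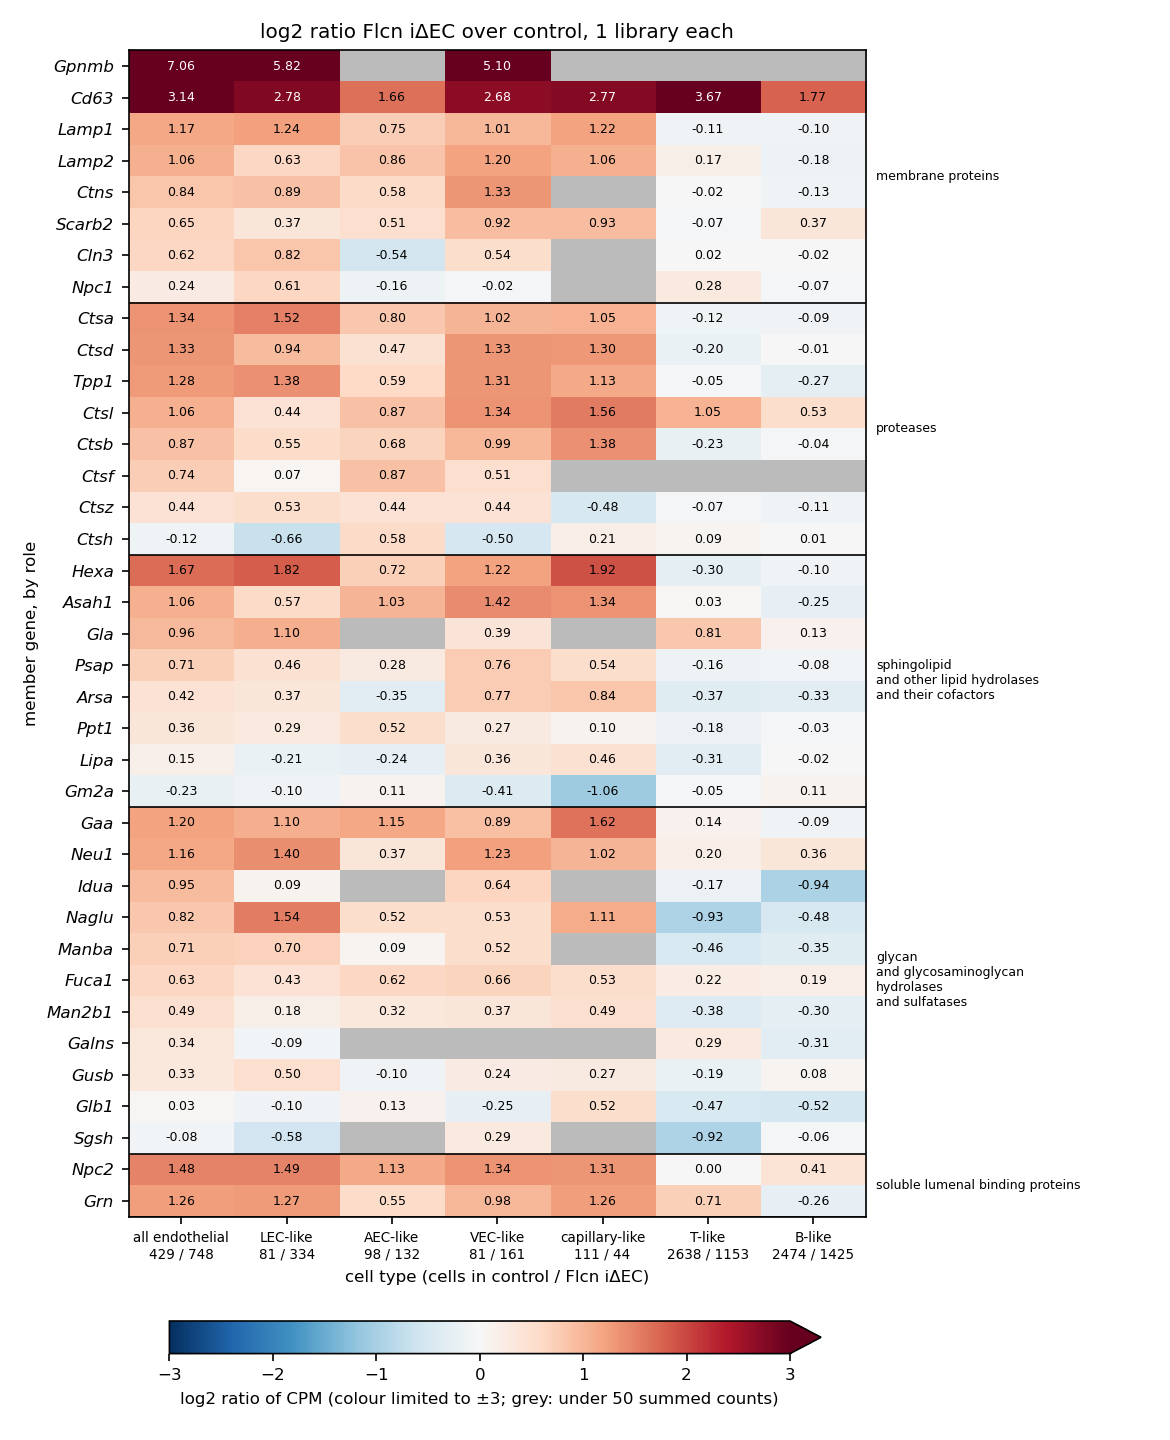
log2 ratio of Flcn iΔEC over control for the 37 members (rows, by role) in all endothelial cells, 4 endothelial types, T-like and B-like cells (columns, with the cells of control and Flcn iΔEC). Colour is limited to 3 either way and grey marks under 50 summed counts; most endothelial entries are red and most lymphocyte entries near white, with Cd63 the exception in both lymphocyte columns.

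Between cell types of a library, endothelial cells stood above lymphocytes in many members and myeloid-like cells above both in most. In the control library 22 of 37 members were at least 2-fold higher in endothelial than in T-like cells and 2 (Npc2 and Gpnmb) at least 2-fold lower, and in the Flcn iΔEC library the counts were 29 and 0. The median ratio of endothelial over T-like level was 2.22 in control and 5.61 in Flcn iΔEC. Against B-like cells 18 and 27 members were at least 2-fold higher in endothelial cells, and Gla and Gm2a at least 2-fold lower in both libraries. The few myeloid-like cells had the highest level of the 7 types for 20 members in control and 22 in Flcn iΔEC. Among the endothelial types LEC-like cells were the highest for 17 and 21 members, and the highest endothelial type was the same in both libraries for 16. These counts between cell types were not made over all genes. They therefore describe the members only and do not set them apart from other genes. In myeloid-like cells 3 of 16 members tested were past 2-fold up (Ctsd, Ctsl and Ctsb), where 10.0% of all genes were. Ctsd was 673 and 2380 CPM (ratio 3.54, 2.70 to 4.70), Ctsl 224 and 583 CPM (ratio 2.60, 1.60 to 4.41) and Ctsb 1249 and 2970 CPM (ratio 2.38, 1.94 to 2.94), from 29 and 17 shallow cells. In innate lymphoid-like cells 0 of 9 members tested were past 2-fold up, where 1.2% of all genes were.

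A list of 40 further lysosomal genes showed a smaller median difference in the same direction. In endothelial cells 9 of the 40 were past 2-fold up and 0 down, where 3.79% and 6.71% of all genes were, with a median log2 ratio of 0.49 beside -0.16 for all genes. Among the 9 were Lgmn (asparagine endopeptidase, 70.0 and 254 CPM, ratio 3.63, 3.33 to 3.97), Dpp7 (ratio 3.23), Scpep1 (3.14), Ostm1 (2.87), Galc (2.69), Man2b2 (2.43) and Aga (2.12), which are peptidases, glycan or lipid hydrolases, or lysosomal proteins of other function. In T-like and B-like cells 0 of 35 and 0 of 36 tested were past 2-fold up, where 1.33% and 2.3% of all genes were, which is too low a share to read anything from a count of 0. Of the factors upstream, Tfe3 was 24.7 and 20.6 CPM (ratio 0.833, 0.701 to 0.993), Tfeb 37.03 and 25.8 CPM (ratio 0.698, 0.604 to 0.808), and Mitf had only 6 and 30 counts. Fnip2, which encodes a binding partner of FLCN, was 21.1 and 30.5 CPM (ratio 1.44, 1.21 to 1.72). Rragd, which encodes a Rag GTPase, was 2.16 and 26.7 CPM (ratio 12.3, 7.63 to 21.3) and 2.08 and 2.55 CPM in T-like cells. Transcript levels of the factors do not show where their proteins are.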

How the data were processed

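Mesenteric cells selected for CD31 were measured with the Chromium 3′ version 3 kit on a HiSeq3000, 1 library per genotype. The authors deposited UMI counts per gene and cell barcode, made with Cell Ranger 3.0 on mm10, and the deposited counts were used without a filter on cells. The 2 libraries were grouped by their labels. Cells were typed by marker scores. Endothelial cells had at least 2 Cdh5 and at most 1 Ptprc UMIs, and the cutoffs, like the divisions by Lyve1 (1.5 UMIs per 10000) and Prox1 (3 UMIs), were set after the cells had been seen. Cells with Cdh5 and more Ptprc were left out (137 and 144), a step aimed at droplets that mix endothelial cells with leukocytes. It does not act on other mixed droplets. Called doublets (Scrublet in scanpy, 142 and 37) were kept, none of them endothelial.

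Counts were summed per library and cell type and scaled to CPM. Intervals are exact, at 95% (Poisson for levels, conditional for ratios, Clopper-Pearson for shares), and cover counting error only. Log2 ratios had 1 count added to each sum. A gene was tested with at least 50 summed counts and called past 2-fold, since 1 library per genotype allows no p-value. Shares of cells were thinned to 2000 UMIs. On simulated endothelial counts of 12167 genes, 188 of 200 genes set to 2.5-fold were recovered past 2-fold and 13 unchanged genes passed. The simulated counts varied by counting error only, so they do not cover differences between mice, pools or libraries.

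Members with full values were those past 2-fold in any type, the 6 largest and 3 smallest endothelial log2 ratios, and Gpnmb, Lamp1, Ctsd, Ctsb and Cd63. Of the 40 further lysosomal genes, counts and those past 2-fold in endothelial cells are given, except 2 that are not reported here by name. The members, lists and regulators were chosen with earlier results of these data known. Alternatives varied the cell filter, doublets, scaling, cell weights, cutoffs, count minimum, added count, fold and thinning. Gene positions are from GENCODE on GRCm38 (28416 of 28692 genes matched) and promoters from RefSeq. Python 3.11.15, numpy 2.4.6, scipy 1.17.1, pandas 2.3.3, scanpy 1.11.5 and matplotlib 3.10.9 were used.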

Additional observations from a re-analysis of the deposited data

Results flagged for a closer look

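Ctsh differed in opposite directions between endothelial types under the same contrast, being 1.49 times the control level in AEC-like cells against 0.634 times in LEC-like and 0.708 times in VEC-like cells. Naglu differed in opposite directions between endothelium and lymphocytes, at 2.99 times the control level in LEC-like, 1.45 in AEC-like, 1.46 in VEC-like and 2.16 in capillary-like cells against 0.509 in T-like and 0.713 in B-like cells. With 1 library per genotype neither difference was tested.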

How the results depend on the processing

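Of 653 values recomputed under the alternatives, 0 reversed, while 15 of 209 summary values and 55 of 444 values of single genes moved by more than their limits. By rule, a reversal could be called only for single genes past 2-fold and for medians well away from 0. Counts, shares of cells and the T-like and B-like medians could not be called reversed. The median log2 ratio of the members ranged from 0.68 to 0.98 in all endothelial cells, 0.53 to 0.78 in LEC-like, 0.49 to 0.69 in AEC-like, 0.72 to 0.88 in VEC-like, 0.87 to 1.27 in capillary-like and -0.12 to -0.03 in T-like cells. Of the 14 members past 2-fold in endothelial cells, 12 were past it in every alternative, and Ctsl and Lamp2 had lowest log2 ratios of 0.88 and 0.94. Alternatives with the largest shifts were these. Centring on the median of all genes gave a B-like median of -0.0056 and 7 members past 2-fold in AEC-like cells. A limit of 1.5-fold gave 13 in AEC-like, 21 in VEC-like, 25 in all endothelial and 4 in T-like cells, and no count minimum gave 3 in B-like cells. Cells of 10000 to 30000 UMIs, an alternative chosen after seeing the data, as were those on Ptprc, Lyve1 and Prox1, gave 1 in T-like cells. The share of Flcn iΔEC cells with a Gpnmb UMI was 12.6% of LEC-like and 1.25% of VEC-like cells at 1000 UMIs and 63.5% and 24.2% without thinning, and Cd63 was seen in 1.65% and 9.71% of T-like cells in the same order, with 1.10% in control T-like cells without thinning. The share of cells thus depends on the depth to which cells are thinned. No paired analysis was possible because each genotype has 1 library. Myeloid-like cells were too few and too shallow for most members.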
